A study of Mus musculus with 2 samples.

Results

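The natriuretic peptide system was read from 8 genes, taken by symbol out of the 19465 genes in both gene tables: the peptide genes Nppa, Nppb and Nppc, the convertase genes Corin and Furin, and the receptor genes Npr1, Npr2 and Npr3. Expression came from the Visium CytAssist assay on formalin-fixed tissue, which counts ligated probes as unique molecular identifiers (UMIs) in spots on a regular grid. The study compared 2 hearts, 1 section of 5 µm from each. The control mouse was α-MHC-MerCreMer+/-, and the TOP2B transgenic mouse was α-MHC-MerCreMer+/- hTOP2B LSL/-. Both therefore carried a tamoxifen-dependent Cre that is driven by the α-MHC promoter in cardiomyocytes, and both received 1 intraperitoneal dose of tamoxifen at 80 mg/kg, at 6 weeks of age in the study's methods for this model. In the transgenic mouse the Cre removes a STOP cassette in front of a CAG-driven human TOP2B cDNA at Rosa26.

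The gene tables hold mouse genes only, so mouse Top2b, at 106 UMIs per 1000000 UMIs of the control section (CPM) and 102 CPM in the transgenic heart, does not check the human transgene. The control section held 1256 spots and 14376300 UMIs, and the transgenic section 924 spots and 12953389 UMIs, with a median of 11336 and 14531 UMIs per spot. With 1 section per genotype no difference has a replicate check, no p-value is given, and the 95% intervals below cover counting error only. Section, mouse and genotype cannot be told apart. In summed tissue, fewer cells of a type and less RNA per cell cannot be told apart either, and each gene has its own probes, so the level of one gene is not set against that of another. A spot can hold several cell types. The cardiac label was borne out by Tnnt2, the troponin T of heart muscle, which had UMIs in 99.8% of control spots and 99.6% of transgenic spots.

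Natriuretic peptides are hormones through which the heart answers load on its walls. Atrial natriuretic peptide (ANP, from Nppa) is made mainly by atrial myocytes in the adult, whereas ventricular muscle makes it in fetal life and again under stress. Brain natriuretic peptide (BNP, from Nppb) comes from stressed ventricle, and C-type natriuretic peptide (CNP, from Nppc) acts mostly near endothelial cells. Corin, a membrane protease of cardiomyocytes, cuts pro-ANP, and furin, a convertase of the secretory pathway, cuts pro-CNP and takes part in cutting pro-BNP. Npr1 encodes the guanylyl cyclase receptor for ANP and BNP, Npr2 that for CNP, and Npr3 the clearance receptor, which has no cyclase domain and takes all of these peptides out of the circulation.

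Nppa, Npr3 and Furin were higher and Corin was lower in the transgenic section, each by at least 2-fold. Of the 8 genes, 7 held at least 20 UMIs over both sections, the minimum for a fold to be called, and Nppb did not. The 3 genes at least 2-fold higher compare with 13.7% of all 15236 genes tested, and the 1 gene at least 2-fold lower with 5.61%. On the log2 scale the median ratio of the 7 genes was 0.75, and that of all genes tested was 0.20. Npr1 and Npr2 lay between these and stayed under 2-fold, and Nppc was near background.

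**Figure D1:**
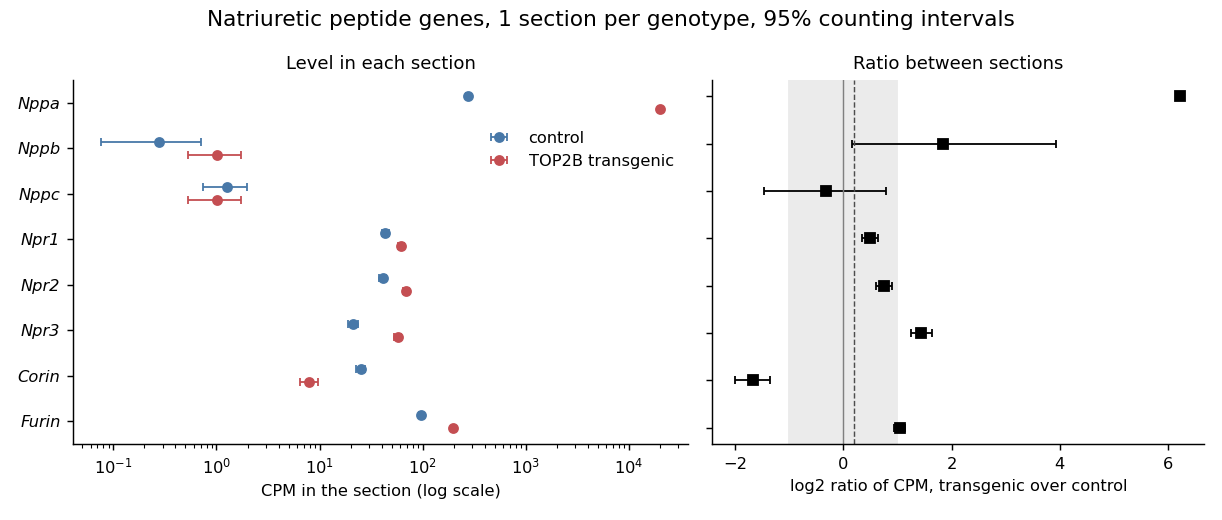
Left, level of each of the 8 genes in CPM on a log axis, 1 point per section with its 95% counting interval. Right, log2 ratio of CPM, transgenic over control, with its 95% counting interval, where the grey band is within 2-fold and the dashed line is the median of all genes tested, 0.20. Nppa, Npr3 and Furin lie to the right of the band, Corin to the left, and the intervals of Nppb and Nppc are wide.

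Nppa and Nppb lie next to each other on mouse chromosome 4, in the same direction, with starts 14822 bases apart in GRCm38.p6. The 250 bases before each start are shown because both are known as genes of stressed ventricle and Nppa had one of the highest ratios between the sections. They were taken from the promoter windows of RefSeq, build GRCm38.p6, which matched all 8 genes with 9 windows, Furin having 2. Nppa is at chr4:148000472-148000721 and Nppb at chr4:147985650-147985899, both on the plus strand and printed 5′ to 3′. Capitals mark letters searched on both strands, namely GATAA (GATA factors), TATAAA (the TATA box), GGAATG (the M-CAT element of TEAD factors), TCACACC (a T-box element) and AAGTG (the core of an NKX2-5 element).
Nppa: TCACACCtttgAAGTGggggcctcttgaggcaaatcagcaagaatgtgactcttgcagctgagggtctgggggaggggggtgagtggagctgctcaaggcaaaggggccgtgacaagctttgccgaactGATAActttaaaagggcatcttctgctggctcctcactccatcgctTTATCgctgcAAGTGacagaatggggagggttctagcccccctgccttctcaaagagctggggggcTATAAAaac
Nppb: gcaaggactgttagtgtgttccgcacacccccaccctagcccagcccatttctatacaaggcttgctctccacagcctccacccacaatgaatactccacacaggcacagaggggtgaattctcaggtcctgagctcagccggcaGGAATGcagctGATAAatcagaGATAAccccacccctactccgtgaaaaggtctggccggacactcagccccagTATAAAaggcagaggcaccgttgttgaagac

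GATAA stood in both windows, at -121 and, as TTATC, at -75 in Nppa and at -94 and -83 in Nppb, counted in bases from the gene start. TATAAA began at -9 in Nppa and at -31 in Nppb. Of these windows, that of Nppa alone held TCACACC, at -250, and AAGTG, at -239 and -65, and that of Nppb alone held GGAATG, at -105. In all 32851 promoter windows of the same table, 300 bases long, GATAA was found in 25.4%, TATAAA in 13.6%, GGAATG in 14.7%, TCACACC in 3.98% and AAGTG in 46.4%. Among the 8 genes, GATAA was found for Nppa and Nppb only, and TATAAA for Nppa, Nppb, Nppc and Furin. A full match to the CArG box, the element of SRF, was in none of the 9 windows and in 1.63% of all. Near matches, which depart from the pattern by a base, were not counted, so a CArG-like element in these windows is not excluded. These matches are letters in a short window, not shown binding.

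Nppa had the eighth highest ratio of the 15236 genes tested, with 7 genes above it. Its part of all UMIs was 0.0274% in the control against 2.02% in the transgenic heart, and its CPM went from 274 (95% interval 265 to 282) to 20249 (20172 to 20327), 74.0-fold. Nppa over Tnnt2, another cardiomyocyte transcript of the same section, changed 65.8-fold. Tnnt2 was the highest of 7 cardiomyocyte genes, at a log2 ratio of 0.17. The other 6 were below 0, down to Tnni3 at -1.92, so the change of Nppa is larger against those.

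Spot by spot, Nppa in the control section was patchy and mostly low. Over the 1249 spots with at least 1000 UMIs, the 25th percentile was 0, the median was 48.4 CPM, the 90th percentile 746 CPM and the highest spot 14142 CPM, with 162 UMIs. The 126 spots with most Nppa UMIs, 10% of all spots of the section, held 69.5% of its Nppa UMIs. Ranked by CPM instead, the top 125 spots formed 29 connected groups on the grid, the largest of 14 spots, and 9 were single spots. A spot next to an Nppa-positive spot held Nppa in 68.8% of cases, against 31.4% next to a negative spot.

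In the transgenic section Nppa was everywhere. The 10th percentile of its 921 spots was 4672 CPM, the median 14942 CPM and the highest spot 73331 CPM, with 1633 UMIs. No control spot reached the transgenic median, 7 control spots lay above the transgenic 10th percentile, and 3 transgenic spots lay below the control 90th percentile. The top 10% of spots by Nppa UMIs held 30.3% of the Nppa UMIs. Of the 93 spots highest in Nppa CPM 53, or 57.0%, formed 1 connected group. The deposited Moran's I of Nppa, a score of how alike neighbouring spots are, ranked 3 among 19219 control genes and 9 among 19227 transgenic genes.

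**Figure D2:**
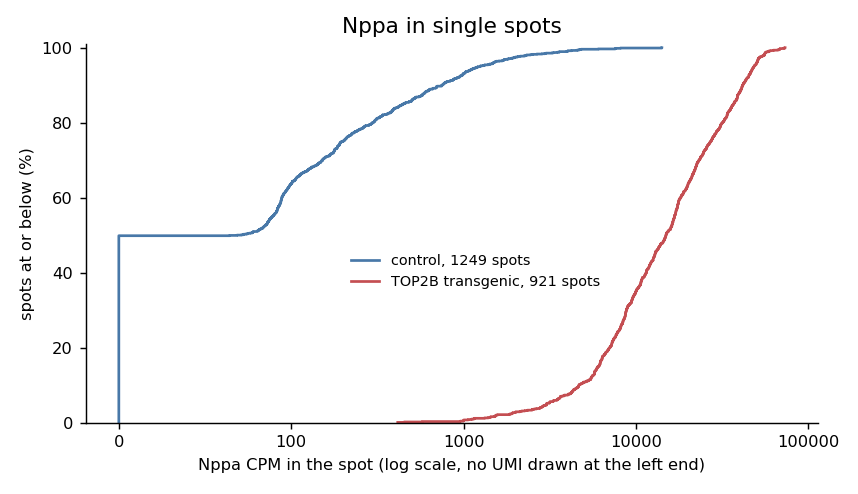
Cumulative share of spots (percent, vertical axis) at or below each Nppa level (CPM in the spot, log axis with spots without a UMI drawn at the left end), 1 line per section, over spots with at least 1000 UMIs. The control line starts near 50% because that share of spots had no Nppa UMI, and the transgenic line lies almost wholly to its right, with medians of 48.4 and 14942 CPM.

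The highest Nppa spots also lay in different places. Spots were placed by steps on the grid from the outer edge of the tissue and from the edge of a cavity, where an edge zone reached 2 steps in. Of the control section's Nppa-richest spots 16.8% were in the cavity zone, 64.0% in mid-wall and 18.4% in the outer zone, where all spots fell 9.61%, 69.2% and 20.9%. Of the transgenic ones 53.8% were in the cavity zone, 45.2% in mid-wall and 0 in the outer zone, where all spots fell 25.2%, 41.9% and 22.9%.

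Summed by place, Nppa was 240 CPM in the outer zone, 266 in mid-wall and 411 in the cavity zone of the control heart. The transgenic levels at these places were 12272, 21229 and 27695 CPM. Cavity over outer zone came to a log2 ratio of 0.77 (0.60 to 0.94) in the control and 1.17 (1.16 to 1.19) in the transgenic heart. By summed level the outer zone was lowest in both, in the control by little, at 0.906-fold of mid-wall. Nppa also differed between the 4 quadrants of a section, split at the centre of the tissue. They ran from 180 to 374 CPM (2.08-fold) in the control and from 10678 to 27342 CPM (2.56-fold) in the transgenic heart. The intervals of the zones do not cover this spread. The transgenic over control ratio was 51.0-fold in the outer zone, 80.0-fold in mid-wall and 67.5-fold in the cavity zone. Cavities were found as gaps in the grid of spots, not in the image, so lost tissue would count as one. The sections differed in shape, with 1 cavity in the control against 3 in the transgenic heart and a median of 16 and 9 steps from outer edge to cavity, and the part of this in the zones was not tested.

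**Figure D3:**
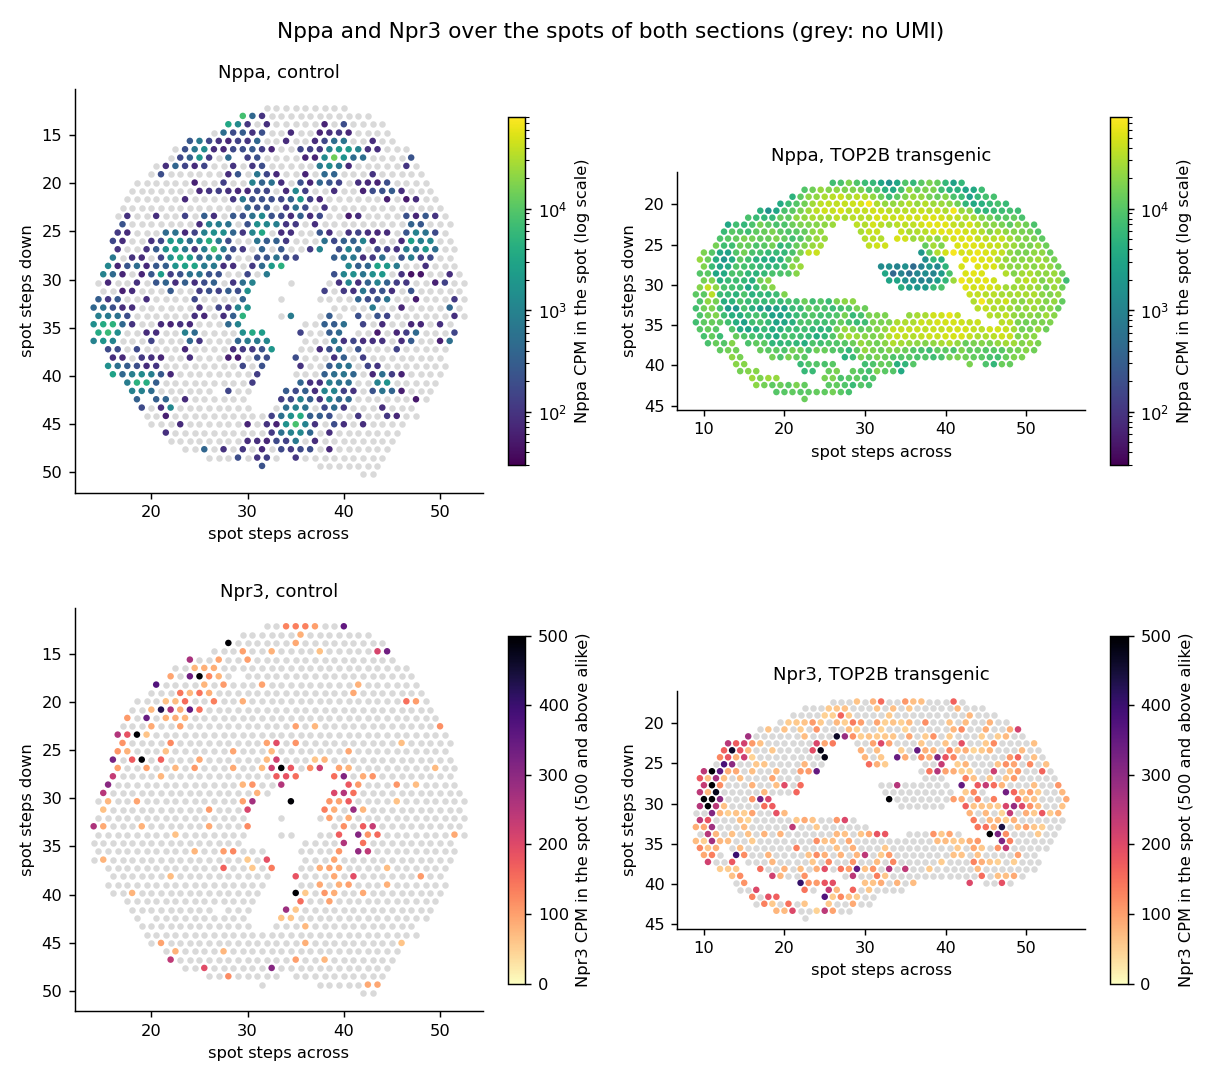
Spots of both sections on the array grid (axes in spot steps), coloured by Nppa CPM on a log scale (top) and by Npr3 CPM (bottom, 500 CPM and above drawn alike), with grey for spots without a UMI. Control Nppa is in patches between grey spots and transgenic Nppa covers the section with its brightest spots along the cavities, whereas Npr3 is denser near the outer and cavity edges of both.

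Genes whose level over spots was most like that of Nppa differed between the sections. Likeness was Pearson's r over the spots of 1 section, which share library and depth, and is given as a description. Among 7220 genes ranked in the control heart the 10 closest were Ankrd1 (0.35), a stretch-response gene, Myh7 (0.33), the fetal myosin heavy chain, Sdc4 (0.31), Casq1 (0.30), Myl1 (0.28), Clu (0.27), Gsn (0.26) and the smooth muscle genes Tagln (0.26), Acta2 (0.24) and Tpm2 (0.23). Over transgenic spots, with 7589 genes ranked, they were Clu (0.71), the secreted chaperone clusterin, Mgp (0.66), Igfbp7 (0.64), Bgn (0.62), Gpx3 (0.62), Col1a2 (0.61), Ccn2 (0.60), Sparc (0.59), Eln (0.57) and Hspb1 (0.56), most of them genes of the extracellular matrix. Clu alone was in both lists. Each list was also read in the other section. Without Clu, the 9 genes named in the control section were between 0.04 (Casq1) and 0.44 (Ankrd1) in the transgenic section, with Myh7 at 0.30. The 9 matrix and other genes named in the transgenic section without Clu were between 0.08 and 0.21 in the control section. Control spots held a median of 1 Nppa UMI and transgenic spots 204, and few counts lower r. The part of this in the difference between the lists was not tested. The median r of all genes ranked was 0.01 in the control and 0.08 in the transgenic section.

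Nppa was higher in spots rich in several marker lists in the control section, and less so or not in the transgenic section. The 10% of control spots richest in smooth muscle genes had 718 CPM of Nppa and the other control spots 227 CPM, 3.17-fold. Spots rich in fibroblast, conduction and endocardial genes were at 3.02-fold, 2.61-fold and 2.61-fold. The same ratios in the transgenic heart, in this order, were 1.13, 1.24, 0.960 and 1.06. Macrophage-rich, endothelial-rich and pericyte-rich spots were at 1.77-fold, 1.65-fold and 1.53-fold in the control, and at 1.11-fold, 0.777-fold and 0.881-fold in the transgenic heart. Spots rich in ventricular genes had less Nppa in both, at 0.505-fold and 0.546-fold, as had those rich in cardiomyocyte genes, at 0.574-fold and 0.501-fold. The part of these cell types in the Nppa pattern was not tested.

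Atrial tissue is the usual source of Nppa, so the atrial genes were read beside it. The 29 control spots with a Myl7 UMI, the atrial myosin light chain, held 2.95% of the control Nppa UMIs, at 397 CPM against 271 CPM elsewhere. The 10% of control spots richest in the atrial list had 521 CPM of Nppa and the others 249 CPM, 2.09-fold, and the transgenic ratio was 1.35-fold. Summed over 5 atrial genes the level was 25.4 CPM in the control against 131 CPM in the transgenic heart, and 3 of the 4 with enough UMIs were at least 2-fold higher, led by Dkk3 at a log2 ratio of 4.20, with Myl7 at 8.69 and 31.6 CPM. The atrial genes Sln, with 16 and 10 UMIs, and Bmp10, with 9 and 9 UMIs, had few counts. Even so, the Moran's I of Sln was 0.090 in the control, rank 115, and -0.012 in the transgenic section. That of Myl7 was 0.345 in the control, rank 8, and 0.198 in the transgenic section, rank 731. Control Myl7 had 112 UMIs in the outer zone of the tissue, 13 in mid-wall and 0 in the cavity zone, so it was local there. Transgenic Myl7 was in 31.6% of spots, against 2.31% in the control. It had 115 UMIs in the outer zone, 183 in mid-wall, 64 in the cavity zone and 45 near both edges. Dkk3 held 947 of the 1703 transgenic UMIs of the atrial list. The transgenic spots richest in atrial genes therefore cannot be taken as atrial tissue. Without the 10% of spots richest in atrial genes the log2 ratio of Nppa was 6.30.

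Nppb and Nppc gave too few counts to describe a pattern. Nppb had 4 UMIs in 4 control spots and 13 UMIs in 13 transgenic spots, 0.278 and 1.00 CPM, at a log2 ratio of 1.85 (0.16 to 3.92). Nppc had 18 and 13 UMIs, 1.25 and 1.00 CPM, at a log2 ratio of -0.32 (-1.47 to 0.79). Background was read from 20 genes of other organs, such as pancreas, pituitary and kidney, which each had 0 to 46 UMIs over control spots and 2 to 38 over transgenic spots. Of these 20 genes, 19 had at least as many UMIs as Nppb in the control and 7 in the transgenic section, and for Nppc the counts were 5 and 7. Neither gene was therefore measured above probe background, and whether its probes work in this assay cannot be told from the counts. The quadrants of the 2 sections also overlapped for both genes, with Nppb from 0 to 0.586 CPM among control quadrants and 0 to 2.06 CPM among transgenic ones.

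Corin was the 1 gene of the system that fell. It had 361 control UMIs, 25.1 CPM (22.6 to 27.8), and 102 transgenic UMIs, 7.87 CPM (6.42 to 9.56). The log2 ratio was -1.67 (-2.005 to -1.352), or 0.314-fold. The share of spots with a Corin UMI was 24.9% and 10.4%, and at an equal depth of 8134 UMIs per spot it was 18.8% and 5.66%. The 4 quadrants of each section, spots split at the centre of the tissue, ran from 21.7 to 28.9 CPM for the control against 5.77 to 12.0 CPM for the transgenic heart. These ranges did not overlap, nor did those of 43.5% of all genes tested and 64.4% of the 7495 genes with at least 400 UMIs over both sections.

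Corin had little spatial pattern in these counts. Its Moran's I was -0.005 and 0, and a spot next to a Corin-positive spot held Corin in 24.8% of cases in the control section against 25.4% next to a negative spot, and in 11.0% against 10.4% of cases in the transgenic heart. By place it was 25.3, 24.8 and 27.5 CPM from outer zone to cavity zone of the control, against 8.64, 7.53 and 8.46 CPM in the transgenic heart. Cardiomyocyte genes were also lower in sum, from 52825 to 29674 CPM over 7 genes, 3 of them by at least 2-fold, with Tnni3 at -1.92 and Myh6 at -1.69, but Tnnt2 at 0.17. Corin over Tnnt2 changed 0.279-fold and Corin over Furin 0.152-fold. The part of cardiomyocyte number in the Corin value was not tested.

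Furin was higher over the whole transgenic section. Its control count was 1391 UMIs, 96.8 CPM (91.7 to 102), and its transgenic count 2578 UMIs, 199 CPM (191 to 207), a log2 ratio of 1.04 (0.95 to 1.14). The quadrants ran from 90.5 to 106 CPM and from 182 to 224 CPM. At equal depth 54.2% and 79.3% of spots had a Furin UMI. The value lies just above 2-fold, and Furin was under it at 0.88 with TMM scaling, which lowered the median of all genes by 0.16, and at 0.89 with DESeq2 size factors.

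Furin was level through the wall, at 93.4, 98.0 and 94.2 CPM from outer zone to cavity zone of the control, against 203, 206 and 196 CPM in the transgenic heart. Its Moran's I was 0.012 in the control heart and 0.176 in the transgenic one, where scores were higher for most genes. Among genes with at least 1000 UMIs the median score was 0.011 and 0.114, and 2.81% and 55.3% of them were above 0.1. The 111 transgenic spots without Furin had a median of 9754 UMIs, and those with it 14877. The genes closest to Furin over transgenic spots were the muscle genes Myl1 (0.40), Hspb7 (0.39) and Csrp3 (0.38), and in the control section no gene passed 0.13, with Smad4 (0.13), Ndufb9 and Edf1 first.

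The receptors differed in how much they changed, with the clearance receptor Npr3 ahead of both cyclase receptors over the summed sections. In the cavity zone it was not ahead, at a log2 ratio of 0.46 (0.08 to 0.87) against 0.47 for Npr1 and 0.70 for Npr2. Npr1 had 626 control UMIs, 43.5 CPM (40.2 to 47.1), and 795 transgenic UMIs, 61.4 CPM (57.2 to 65.8), a log2 ratio of 0.50 (0.34 to 0.65). Npr2 had 589 UMIs, 41.0 CPM (37.7 to 44.4), and 892 UMIs, 68.9 CPM (64.4 to 73.5), a log2 ratio of 0.75 (0.60 to 0.90). Both were higher beyond counting error but under 2-fold. Npr3 had 305 UMIs, 21.2 CPM (18.9 to 23.7), and 744 UMIs, 57.4 CPM (53.4 to 61.7), a log2 ratio of 1.44 (1.24 to 1.63).

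Within each section, Npr3 over Npr1 changed 1.92-fold and Npr3 over Npr2 1.61-fold, whereas Npr2 over Npr1 changed 1.19-fold. The quadrant ranges of the sections did not overlap for any of the 3 receptors, as for 64.4% of all genes with at least 400 UMIs, so nothing is read from this. Npr1 ran from 37.8 to 46.7 CPM in control quadrants and from 55.5 to 67.0 CPM in transgenic ones, and Npr2 from 37.5 to 46.9 and from 64.4 to 74.7 CPM. Npr3 was the uneven one, from 9.16 to 42.5 CPM across control quadrants, 4.63-fold, and from 47.2 to 70.8 CPM across transgenic quadrants, 1.50-fold. At equal depth the shares of spots with a UMI were 29.2% and 38.9% for Npr1, 28.7% and 42.8% for Npr2, and 11.9% and 32.1% for Npr3.

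More spots held several receptors in the transgenic heart, where spots were deeper and each receptor was in a larger share of spots. Whether receptors shared spots more often than these shares alone give was not tested. Of control spots 32.7% had no receptor UMI, 557 had 1 of the 3 receptors, 257 had 2 and 27, or 2.16%, had all 3. Of transgenic spots 12.3% had none, 293 had 1, 370 had 2 and 145, or 15.7%, had all 3. Of the spots with Nppa, 67.9% in the control against 87.7% in the transgenic heart held a UMI of some receptor. Npr1, the ANP receptor, was found in 38.5% of Nppa-positive control spots and 38.2% of Nppa-free ones.

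Npr3 was highest near the edges of the tissue, and Npr1 and Npr2 differed less between places. Control Npr3 was 26.4 CPM (20.6 to 33.3) in the outer zone, 15.7 (13.4 to 18.3) in mid-wall and 55.0 (42.8 to 69.4) in the cavity zone. Transgenic Npr3 was 63.9 (55.0 to 73.8), 42.7 (37.6 to 48.2) and 75.8 (66.6 to 86.0). Cavity zone over mid-wall was a log2 ratio of 1.81 (1.39 to 2.22) for the control against 0.83 (0.57 to 1.09) for the transgenic heart. Transgenic over control, Npr3 was 2.72-fold in mid-wall, 2.42-fold in the outer zone and 1.38-fold in the cavity zone, the last at a log2 ratio of 0.46 (0.08 to 0.87). Counted from any edge of the tissue, Npr3 was 48.6, 25.2, 26.8 and 10.4 CPM at the edge and at 1, 2 and at least 3 steps from it in the control heart. The transgenic levels were 84.3, 59.8, 43.6 and 32.1 CPM, so both hearts had most Npr3 at their edges.

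Npr1 was 46.5, 42.7 and 44.7 CPM from outer zone to cavity zone of the control, against 66.3, 62.1 and 62.0 CPM in the transgenic heart. Npr2 was 45.4, 40.0 and 40.0 CPM and then 78.4, 67.8 and 65.2 CPM. Their transgenic over control log2 ratios were close to each other at every place, from 0.47 to 0.54 for Npr1 and from 0.70 to 0.79 for Npr2. A spot next to an Npr3-positive spot held Npr3 in 36.2% of cases against 12.1% next to a negative spot in the control, and in 54.6% against 37.5% in the transgenic heart. For Npr1 the shares were 38.8% and 38.3% in the control and 58.2% and 51.8% in the transgenic heart, and for Npr2 37.8% and 37.7%, then 61.7% and 54.9%.

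**Figure D4:**
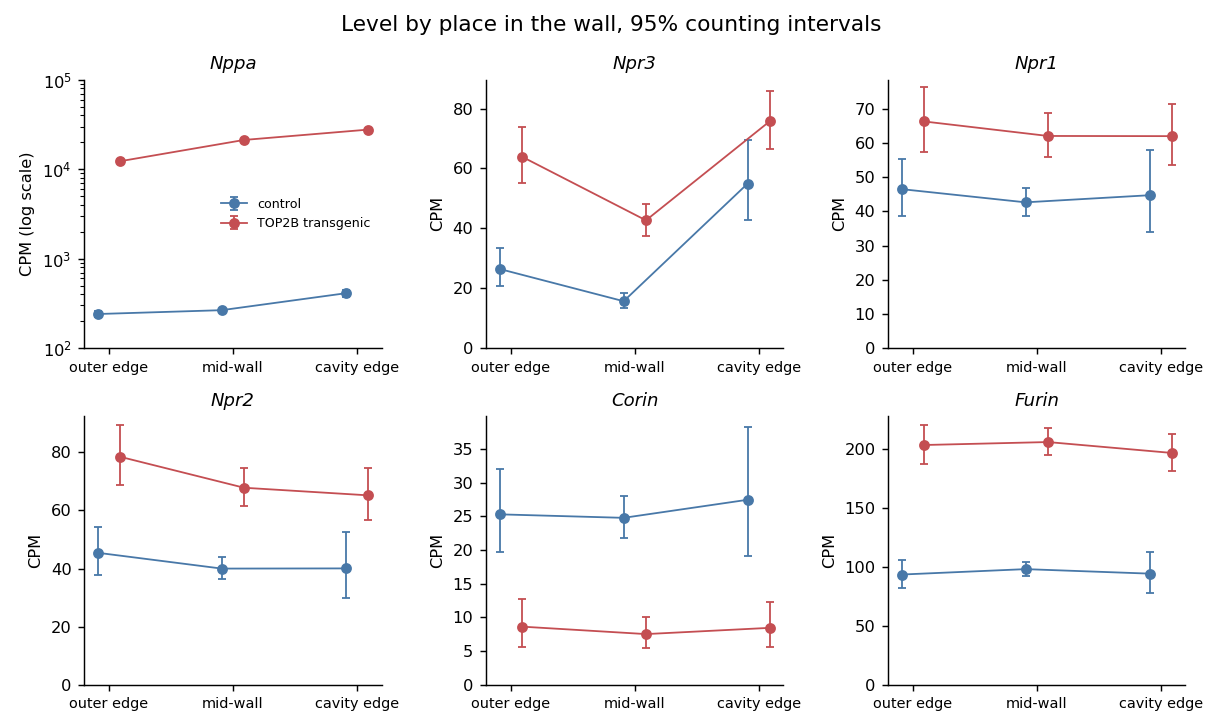
Level in CPM of 6 genes in the outer edge, mid-wall and cavity edge zones of each section, with 95% counting intervals (Nppa on a log axis, the others from 0). Npr3 is highest at the cavity edge of both sections, at 55.0 and 75.8 CPM, but in the transgenic section its interval overlaps that of the outer edge. Nppa is lowest at the outer edge, in the control by little, and the other genes differ little between zones.

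Npr3 was found most with genes of the endocardial and fibroblast lists. In the 10% of control spots richest in endocardial genes it was 94.6 CPM, against 14.2 CPM in the other spots, 6.67-fold, and in transgenic spots 183 against 45.0 CPM, 4.07-fold. Fibroblast-rich spots were at 4.73-fold and 2.72-fold, and spots rich in general endothelial genes at 1.22-fold and 1.11-fold. Erythroid-rich spots were at 2.60-fold and 1.68-fold, and epicardial-rich spots at 2.35-fold and 1.29-fold. Cardiomyocyte-rich spots had less Npr3, at 0.409-fold and 0.600-fold. The genes closest to Npr3 over spots included Igf2 (0.38) and Plvap (0.30), a vessel and endocardial gene, in the control section, and Nrg1 (0.46), a growth factor of endocardium, Igf2 (0.46) and Plvap (0.43) in the transgenic section. For Npr1, Npr2 and Corin the highest r over control spots was 0.11, 0.12 and 0.11, with Sdccag8, Spag7 and Trnau1ap, and the highest over transgenic spots were Acadl for Npr1 (0.18) and Ttn for Npr2 (0.22).

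The cell type genes that go with Npr3 were themselves different between the sections. Summed over 6 endocardial genes the level was 62.8 CPM in the control against 187 CPM in the transgenic heart, with Vwf at a log2 ratio of 2.48, Plvap at 1.82 and Cytl1 at -1.43. Vwf held 1349 of the 2422 transgenic UMIs of this list. In the transgenic section Vwf was 163 CPM in the outer and 103 CPM in the cavity zone, Cytl1 4.84 and 3.76 CPM, and Plvap 56.7 and 84.0 CPM. Control Cytl1 was 3.72 and 36.9 CPM. The transgenic list sum therefore does not mark the cavity edge alone. Npr3 over Vwf changed 0.485-fold, Npr3 over Cytl1 7.32-fold and Npr3 over Pecam1, a general endothelial gene, 1.96-fold. Of 6 fibroblast genes 4 were at least 2-fold higher, with a median log2 ratio of 1.11, and of 6 general endothelial genes none changed by 2-fold, with a median of -0.00. Npr1 over Pecam1 changed 1.02-fold. The part of these cells in the receptor values was not tested.

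The relation of peptide and receptor spots was read by ordering the spots of each section by Nppa. For the control heart the 313 spots with most Nppa, at 990 CPM, were set against the 623 spots without an Nppa UMI. Npr3 was 32.9 CPM in the first and 19.5 CPM in the second, a log2 ratio of 0.75 (0.39 to 1.12). Npr2 went the other way, with 31.8 against 45.8 CPM, or -0.53 (-0.85 to -0.21). Npr1 was 40.2 against 44.7 CPM, or -0.15 (-0.45 to 0.14), an interval that holds 0.

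For the transgenic heart the 231 spots with most Nppa were at 40755 CPM and the 231 with least at 5402 CPM. Npr3 was 68.0 against 45.9 CPM, a log2 ratio of 0.57 (0.26 to 0.89). Npr2 was 63.0 against 74.9 CPM, or -0.25 (-0.53 to 0.03), and Npr1 was 55.1 against 57.8 CPM, or -0.07 (-0.37 to 0.24). With these splits, Npr3 alone of the receptors was higher in Nppa-rich spots in both sections. The sign of transgenic Npr1 moved with the cut, at 0.21 between the highest and lowest 10% of spots by Nppa. Npr3 was at 0.24 in the control and 0.38 in the transgenic heart when spots were split at the median of Nppa. In spots away from the tissue edge it was 0.40 and 0.34. Its share of spots at equal depth was 10.7% and 16.5% in the control and 26.3% and 38.1% in the transgenic heart, from Nppa-poor to Nppa-rich spots.

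Ordered in 4 classes, the control section gave 19.5, 11.1, 24.0 and 34.5 CPM of Npr3 from no Nppa to most Nppa, and the transgenic section 45.9, 52.8, 60.7 and 68.0 CPM. Npr2 gave 45.8, 40.4, 37.5 and 31.2 CPM, and then 74.9, 70.3, 68.5 and 62.9 CPM. Npr1 was also lowest in the class with most Nppa, but did not fall at every step. Its intervals in that class overlapped those of the class with no or least Nppa, as did those of Npr2 in the transgenic section. Npr1 gave 44.7, 45.4, 43.0 and 38.6 CPM and then 57.8, 65.7, 67.9 and 54.0 CPM. Spot by spot the relations were weak, with Pearson's r of Nppa and a receptor, Corin or Furin between -0.06 and 0.15. Spots that held Npr3 had 292 CPM of Nppa in the control section, their neighbours 314 and all other spots 238, and the transgenic values were 22522, 18108 and 18259 CPM.

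**Figure D5:**
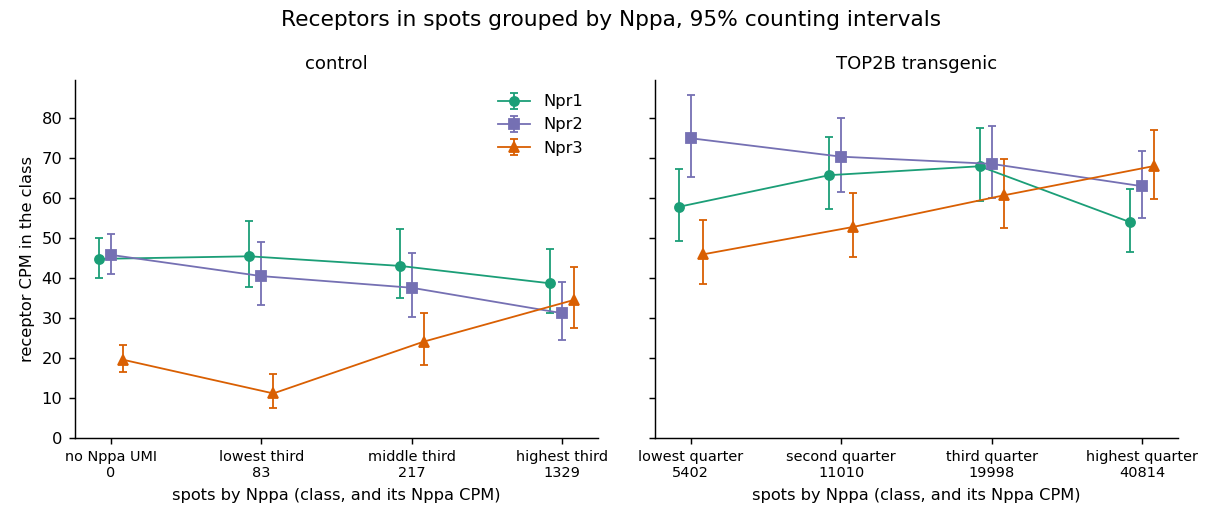
CPM of Npr1, Npr2 and Npr3 (vertical axis) in 4 classes of spots ordered by Nppa (horizontal axis, with the Nppa CPM of each class), control section left and transgenic section right, with 95% counting intervals. Npr3 is highest in the class with most Nppa in both sections, at 34.5 CPM on the left and 68.0 CPM on the right. Npr2, at 31.2 and 62.9 CPM, and Npr1, at 38.6 and 54.0 CPM, are lowest there. Npr2 falls at every step in both sections. Npr1 does not, and its intervals in the class with most Nppa overlap those of the class with no or least Nppa.

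Between Nppa-rich and Nppa-poor spots, Furin and Corin did not differ beyond counting error. Furin in Nppa-rich over Nppa-poor spots was -0.09 (-0.28 to 0.11) on the log2 scale in the control and -0.12 (-0.28 to 0.04) in the transgenic section, and Corin was 0.09 (-0.30 to 0.47) in the control. Transgenic Corin was 8.11 against 4.20 CPM, or 0.95 (-0.07 to 2.05), on 29 and 12 UMIs. Spots that held Corin had 301 CPM of Nppa in the control section, their neighbours 278 and all other spots 207. The transgenic values were 22380, 21616 and 18513 CPM. For Furin they were 265, 293 and 105 CPM in the control and 20583, 17429 and 2512 CPM in the transgenic section, the last on 8 and 18 spots. Fibroblast genes were 1.43-fold and endocardial genes 1.40-fold in Nppa-rich over Nppa-poor control spots, and 1.47-fold and 1.34-fold in the transgenic section, where Nppa-rich spots were also deeper, at a median of 15757 against 13066 UMIs. Larger differences were seen for other lists. Atrial genes were 6.67-fold in Nppa-rich control spots and 2.46-fold in Nppa-rich transgenic spots. In the transgenic heart erythroid genes were 0.242-fold and epicardial genes 0.263-fold in Nppa-rich over Nppa-poor spots, and ventricular genes 0.682-fold. Nothing is read from the erythroid value, because hemoglobin lowers Nppa CPM and so moves blood-rich spots towards the Nppa-poor class. Transgenic spots with at least 10% hemoglobin UMIs had less Nppa by CPM than the other spots. With hemoglobin UMIs left out of the total they had more, at 25141 against 20620. The part of these lists and of depth in the Npr3 relation was not tested.

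Genes that act after the receptors were read from 18 genes of cGMP signaling, the second messenger made by Npr1 and Npr2. Of these 16 had enough UMIs, 2 were at least 2-fold higher and none lower, beside 13.7% and 5.61% of all genes tested, and their median log2 ratio was 0.11 beside 0.20. The share higher is near that of all genes. Gucy1b1, a subunit of the soluble guanylyl cyclase that nitric oxide activates, went up from 246 to 1090 UMIs, at 2.30 on the log2 scale (2.10 to 2.50). Its partner Gucy1a1 was at 0.63 and Gucy1a2 at -0.12. Pde9a, a phosphodiesterase of cGMP, rose from 59 to 150 UMIs, at 1.50 (1.05 to 1.96), whereas Pde5a was at -0.04. The lowest was Pde2a at -0.55, and Prkg1, the cGMP-dependent kinase, was at 0.47 (0.02 to 0.92).

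Of 16 genes of peptide processing and clearance, 12 had enough UMIs, 4 were at least 2-fold higher and none lower, with a median of 0.74, beside the same shares of all genes. These 4 had few UMIs, with Chgb at 6 and 29, Pcsk5 at 23 and 84, Ece2 at 30 and 58, and Ostn, which encodes a ligand of the clearance receptor, at 12 and 22. Pcsk6, the convertase that activates corin, was at 0.64 (0.49 to 0.79). Pam, an amidating enzyme that is abundant in atrial myocytes, was at 0.94, and the degrading enzymes Ide and Mme were at -0.08 and, lowest of the list, -0.85 on 18 and 9 UMIs.

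Of 19 factors known to act on the Nppa and Nppb genes, 2 were at least 2-fold higher and none lower, with a median of 0.13. The share higher is again near the 13.7% of all genes. Egr1, an immediate early gene, rose from 178 to 511 UMIs, at 1.67 (1.42 to 1.93), and Hand2 from 2040 to 4372 UMIs, at 1.25. Gata4 was at 0.08, Nkx2-5 at 0.05, Tbx5 at -0.60, Srf at 0.39 and Tead1 at 0.69, and Mef2d was lowest at -0.67.

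Genes near Nppa on its chromosome were read beside it. Clcn6, the nearest on the other side from Nppb, was at a log2 ratio of 0.41 (0.13 to 0.68), and Mfn2, beyond Nppb, was lowest of those read at -0.72.

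Other marker lists are given as counts of genes at least 2-fold higher and lower, among those with enough UMIs. Of 5 ventricular genes 0 and 3 were past 2-fold, with a median log2 ratio of -1.07, of 5 conduction genes 0 and 1 (0.29), of 5 smooth muscle genes 1 and 0 (0.17), of 5 pericyte genes 0 and 1 (-0.00), of 5 epicardial genes 1 and 0 (0.57), of 6 macrophage genes 2 and 0 (0.86), and of 4 nerve genes 1 and 0 (0.18). All 4 erythroid genes were higher, with a median of 3.24, and hemoglobin took 0.212% of control UMIs and 2.01% of transgenic UMIs. The 20 genes of other organs, 11 of them with enough UMIs, had a median of 0.01 and none past 2-fold.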

How the data were processed

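Both sections were deposited by the authors as UMI counts per gene and spot, raw and not normalized, from Space Ranger 2.0.0 per the file headers. The processing notes name bcl2fastq, Space Ranger and build GRCm39 (mm39). The authors also deposited Moran's I, a spatial score per gene, whose per-gene UMI totals matched the matrices for all 8 members. Their files hold spots over tissue. The genes and lists were chosen with earlier results of these data known.

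UMIs were summed per section and given as CPM. Intervals at 95% were exact (Poisson, conditional binomial for ratios). A change was called at 2-fold among genes with at least 20 UMIs over both sections, and a count of 0 allowed 3 UMIs, 0.209 and 0.232 CPM. Spots are not replicates, so no Wilcoxon test over spots, as the study ran, was made. Shares at equal depth were expected values after thinning to 8134 UMIs, with 140 control and 78 transgenic spots too shallow for it. The sections shared 725 spot barcodes, which are positions on the slide design, not cells.

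Positions came from the array grid. The cavity needed at least 8 positions, and 11 and 55 spots, detached or with at least 10% hemoglobin, were placed in no zone, nor were 40 transgenic spots near both edges. Likeness was Pearson's r of log2(1 + UMIs per 10000) among genes with at least 200 UMIs in the section. The genes named were the 8 members, genes of the fixed lists with the highest and lowest of each pathway list, and the closest genes over spots (10 for Nppa, 3 for others), but some of the genes under this rule are not reported here. Actc1 and Hba-a1 were not matched, and Irag1 was matched as Mrvi1. Alternatives were other scalings (edgeR 4.0.16, DESeq2 1.42.0, R 4.3.3), spot subsets, a pseudocount, filters and other splits. The hemoglobin subset, the wall zones, the spot groups, the receptors per spot and the share of all genes with quadrants apart were chosen after seeing the data. Scripts were tested on simulated data with Python 3.11.15, numpy 2.4.6, scipy 1.17.1, pandas 2.3.3 and matplotlib 3.10.9.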

Additional observations from a re-analysis of the deposited data

How the results depend on the processing

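The log2 ratio of Nppa, 6.21 as reported, was 6.05 with TMM factors, 6.06 with DESeq2 size factors, 6.12 without the 50 most abundant genes, 6.30 in spots away from the tissue edge, 6.30 without the 10% of spots richest in atrial genes, 6.30 in the 50% of spots richest in cardiomyocyte genes and 6.11 as a mean over spots of UMIs per 10000. Over 10 settings Npr1 lay between 0.34 and 0.52, Npr2 between 0.59 and 0.78, Npr3 between 1.28 and 1.71, Corin between -1.83 and -1.52, Furin between 0.88 and 1.10, Nppb between 0.65 and 2.04 and Nppc between -0.48 and 0.01. TMM, DESeq2 and leaving out the 50 most abundant genes lowered the median of all genes by 0.16, 0.15 and 0.09, and under these 3 settings 2 members in place of 3 were at least 2-fold higher, since Furin was below 2-fold. With a minimum of 1 UMI the count was 4, as Nppb joined. Corin was the 1 member at least 2-fold lower under every setting run. The median of the regulator list was -0.03 with TMM. Npr3 in Nppa-rich over Nppa-poor control spots was 0.24 when split at the median of Nppa and 0.40 away from the tissue edge, where the transgenic value was 0.34. No paired analysis was possible because there was 1 section per genotype, and for the same reason no replicate could be left out. Nppb and Nppc were at background counts, and whether depth or the probes set this was not tested.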

Other observations

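Spots rich in blood held Nppa UMIs and 0 UMIs of Nppb and Nppc in both sections. In the transgenic section that 0 allows up to 12.9 CPM, above the 1.03 CPM of either gene in the other spots, so nothing is read from it. Of the transgenic spots 53 had at least 10% hemoglobin UMIs, with hemoglobin at 54.8% of their UMIs and a median of 4986 UMIs. Nppa in them was 11374 CPM, against 20451 CPM in the other spots, and 25141 against 20620 UMIs per 1000000 UMIs other than hemoglobin. Npr3 was 73.2 CPM (45.3 to 112, 21 UMIs) there and 57.1 CPM elsewhere, Furin 76.7 and 202 CPM, and Tnnt2 5664 and 14926 CPM. Hemoglobin lowers the CPM of every other gene in these spots. Per 1000000 UMIs other than hemoglobin, Npr3 was 162 there and 57.6 elsewhere, Furin 170 and 203, and Tnnt2 12520 and 15050. In the control section the 8 such spots held 3 Nppa UMIs.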
